A study of Mus musculus with 6 samples.

Results

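Complement genes were followed in articular cartilage of WT mice aged 2 months and 18 months, with 3 libraries at each age. The labels give cartilage as tissue and WT as genotype for every library and name no treatment, so age is the difference they state. The methods speak of male mice, and neither source says whether a library came from 1 animal or from pooled animals, so p-values measure the spread between these libraries, which may in part be technical. The genes were taken by name, with earlier results of these data known: C1qa, C1qb, C1qc, C1ra, C1s1, C3, C4b, Cfb and Cfp. All 9 were among the 33971 genes of the table, and all 9 passed the filter on low counts, which 20397 genes passed. Values are read counts and FPKM, the reads of a gene scaled by its length and by the size of the library, so that levels of different genes can be compared. A positive log2 fold change means more RNA at 18 months. Calls needed an adjusted p-value under 0.05 in the edgeR quasi-likelihood test over all genes together with a log2 fold change beyond 1 in either direction.

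Complement is a cascade of plasma and tissue proteins that marks surfaces for removal and recruits leukocytes. In the classical pathway, C1q, assembled from the products of C1qa, C1qb and C1qc, recognises a target and carries the proteases C1r and C1s, which cleave C4 and C2. All pathways meet at C3, and the alternative pathway amplifies its cleavage with factor B (Cfb) and with properdin (Cfp), which stabilises the convertase. The liver secretes much of the plasma pool, macrophages are a main source of C1q, myeloid cells make properdin, and fibroblasts and chondrocytes also express several components.

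Some facts of the libraries bear on every value below. The libraries held between 48171507 and 59085179 counts. The 14 chondrocyte markers summed to between 11215 and 13304 FPKM in the 2-month libraries and to between 338 and 1593 FPKM in the 18-month libraries, and all 14 were called lower. The 12 neutrophil markers summed to between 6.88 and 3610 FPKM at 2 months and to between 41556 and 46521 FPKM at 18 months, and the 5 erythroid markers to between 161.0 and 4154 FPKM against 17173 to 23187 FPKM. Of the neutrophil markers 0 of 12 were called by edgeR, with 2 at an unadjusted p below 0.05, against 10 called higher in DESeq2 and 12 in limma on log2(FPKM + 0.1), and of the erythroid markers 2 of 5 were called higher by edgeR. Over all genes tested, edgeR called 14.9% higher and 21.3% lower, and 59% had an unadjusted p below 0.05. DESeq2 called 16.1% of all genes higher, and limma on log2(FPKM + 0.1) called 20.3%. Replicate 2 was the highest of the 2-month libraries for the neutrophil and the erythroid lists. In bulk tissue, fewer cells of a type and less RNA per cell cannot be told apart. Xist, which is transcribed from the inactive X chromosome of female cells, was read 88239 to 102417 times per library at 2 months and 11 to 30 times at 18 months, although the methods name male mice, so the groups divided by this gene as they did by age. Cfp is the member that lies on the X chromosome. The part of sex and of cell make-up in the complement results was not tested.

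C1q subunits, C3 and properdin were higher in 18-month cartilage, C4b was lower, and the C1 proteases did not pass both limits. Of the 9 genes, 5 were called higher, beside 14.9% of all genes tested, and 1 was called lower, beside 21.3%, so that 6 of 9 were called in either direction, beside 36.3%. The median log2 fold change of the 9 genes was 3.12, beside −0.02 over all genes tested. The FPKM ranges of the 2 ages did not overlap for 7 of the 9 genes, 6 above and 1 below, where 68.4% of all genes tested had ranges that did not overlap, 35.6% above and 32.8% below. The number of genes whose ranges parted is thus read against a background in which most genes parted.

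**Figure D1:**
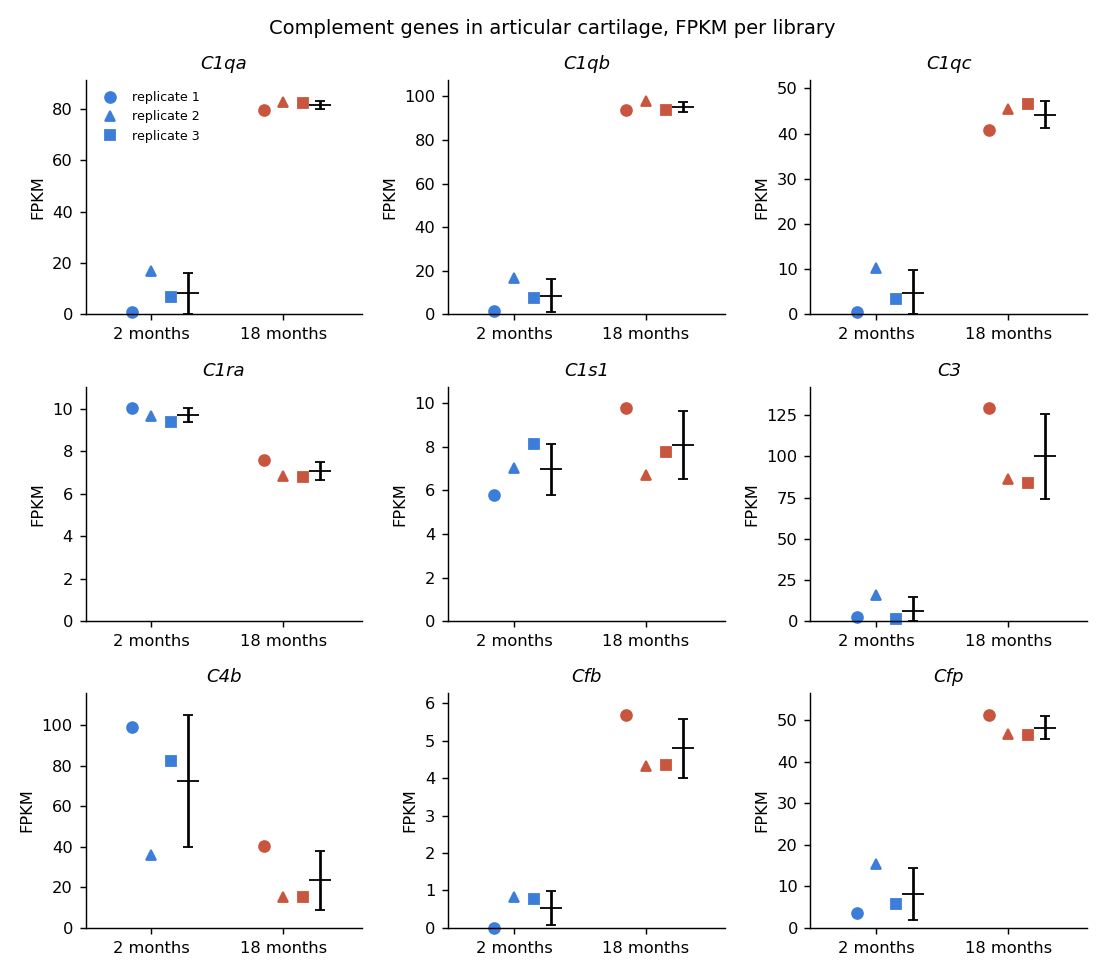
FPKM (vertical axes, linear from 0) of each of the 9 genes in the 3 libraries at 2 months (blue) and the 3 at 18 months (red), with a marker shape for each replicate and the mean with SD (n = 3, bars cut at 0) in black. C1qa, C1qb, C1qc, C3, Cfb and Cfp sit higher in every 18-month library, C1ra sits lower in every one, and C1s1 and C4b overlap.

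The 3 C1q genes lie side by side on the minus strand of chromosome 4, within 18.7 kb (GRCm38). C1qa (ENSMUSG00000036887, chr4:136895917-136898803) encodes the A chain of C1q. It had 1.001, 16.7 and 6.75 FPKM in 2-month replicates 1, 2 and 3, from 58, 1018 and 395 counts, and 79.7, 82.6 and 82.3 FPKM in the 18-month replicates, from 5572, 5404 and 5454 counts. The 18-month libraries lay close together, whereas the 2-month libraries spread widely with replicate 1 lowest. C1qa was called 9.76-fold higher, a log2 fold change of 3.29 ± 0.90 (SE, n = 3 against 3) with an adjusted p of 0.0269 in edgeR.

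C1qb (ENSMUSG00000036905, chr4:136880129-136886187), the B chain, had 1.53, 16.9 and 7.38 FPKM at 2 months and 93.9, 97.8 and 93.9 FPKM at 18 months. Its log2 fold change was 3.43 ± 0.80 (SE) with an adjusted p of 0.0154 in edgeR, and it was called higher. C1qc (ENSMUSG00000036896, chr4:136889804-136893065), the C chain, had 0.466, 10.3 and 3.49 FPKM at 2 months and 40.8, 45.3 and 46.4 FPKM at 18 months. It was called higher as well, by 3.19 ± 0.98 (SE) on the log2 scale with an adjusted p of 0.0384 in edgeR. The 3 chains kept one order of libraries at 2 months, replicate 2 above replicate 3 above replicate 1.

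The chains also kept similar proportions to each other in FPKM, although C1q protein holds them in equal number. C1qa stood at 1.62 to 2.15 times C1qc at 2 months and at 1.77 to 1.95 times at 18 months. C1qb stood at 1.64 to 3.29 times C1qc at 2 months and at 2.02 to 2.30 times at 18 months. The widest proportion, 3.29, was in 2-month replicate 1, where C1qc had 50 counts. The age ranges overlapped for both proportions.

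The calls of the C1q genes rested on the number of libraries to unequal degrees. C1qb kept its call in 5 of 6 fits that each left out 1 library and lost it without 2-month replicate 3, at an adjusted p of 0.0598. C1qa and C1qc each lost it in 4 of 6, without 2-month replicate 3 and without any one of the 18-month replicates, at adjusted p-values in edgeR up to 0.0897 and 0.118. C1qc also lost its call without a filter on low counts, at 0.0542. Tested against a fold change of 2, the adjusted p-values in edgeR were 0.0709 for C1qa and 0.0966 for C1qc. Without 2-month replicate 2, the highest of its age, the log2 fold changes were 4.28 for C1qa, 4.31 for C1qb and 4.37 for C1qc.

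The 250 bases before the RefSeq start sites (GRCm38.p6) of 4 of these genes are shown because the C1q genes moved together while C1ra did not. They are C1qb (chr4:136886201-136886450, minus strand), C1qc (chr4:136892915-136893164, minus strand), C1ra (chr6:124512371-124512620, plus strand) and C3 (chr17:57228137-57228386, minus strand), each written 5′ to 3′ toward the gene. The RefSeq starts of C1qc and C1ra lie inside the genes as annotated here, which begin at chr4:136893065 (minus strand) and chr6:124512405 (plus strand). Most of the C1qc window and most of the C1ra window therefore lie within the annotated gene. Capitals mark GAGGAA or its reverse complement, the core of sites bound by the myeloid factor PU.1.
C1qb: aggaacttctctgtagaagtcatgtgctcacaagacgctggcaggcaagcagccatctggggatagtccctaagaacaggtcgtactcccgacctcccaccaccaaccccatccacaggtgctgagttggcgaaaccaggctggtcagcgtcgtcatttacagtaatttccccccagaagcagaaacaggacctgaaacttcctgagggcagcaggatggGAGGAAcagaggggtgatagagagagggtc
C1qc: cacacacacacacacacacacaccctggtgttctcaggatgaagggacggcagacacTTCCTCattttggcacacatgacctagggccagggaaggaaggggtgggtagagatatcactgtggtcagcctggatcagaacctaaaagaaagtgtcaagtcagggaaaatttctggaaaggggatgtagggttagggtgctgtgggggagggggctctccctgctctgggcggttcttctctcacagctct
C1ra: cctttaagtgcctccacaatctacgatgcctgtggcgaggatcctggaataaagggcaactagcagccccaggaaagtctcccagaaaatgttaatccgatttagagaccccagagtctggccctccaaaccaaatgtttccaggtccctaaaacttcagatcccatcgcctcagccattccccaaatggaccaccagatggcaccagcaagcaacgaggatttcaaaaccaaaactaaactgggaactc
C3: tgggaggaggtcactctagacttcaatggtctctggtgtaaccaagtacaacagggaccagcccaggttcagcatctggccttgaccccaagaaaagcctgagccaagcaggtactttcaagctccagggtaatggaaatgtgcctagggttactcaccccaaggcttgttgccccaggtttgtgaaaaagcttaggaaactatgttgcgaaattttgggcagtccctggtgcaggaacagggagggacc
GAGGAA was found in 2 of the 6 genes with a promoter window, at −30 on the plus strand of the C1qb window and at −193 on the minus strand of the C1qc window. Positions are counted from the RefSeq start site in the direction of transcription. GAGGAA was present on either strand in 23.3% of the 32851 windows of this length. TTCNNNGAA, a STAT-type palindrome, was in 0 of the 6 windows and in 7.0% of all windows, and TATAAA was in 0 of 6 and in 12.4%. Each motif was searched on both strands, and with matches of GAGGAA alone no matches overlapped. C1qa, C4b and Cfb were not searched.

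The summed macrophage markers were also higher in each 18-month library than in any 2-month library. The 12 markers of resident macrophages summed to 12.8, 108.7 and 30.7 FPKM in 2-month replicates 1, 2 and 3 and to between 182.7 and 188.6 FPKM at 18 months. Of these 12 genes 11 were tested and 0 were called by edgeR, where 4 were higher and 1 lower at an unadjusted p below 0.05, as were 59% of all genes tested in either direction. DESeq2 called 4 higher, beside 16.1% of all genes, and limma on log2(FPKM + 0.1) called 5, beside 20.3%. Of the 12, 8 had higher ranges at 18 months and 1, Mertk, had a lower one, beside 35.6% and 32.8% of all genes tested. Adgre1 and Timd4 were listed at 0 in 2-month replicate 1, and Marco, left out by the filter, in 3 of the 6 libraries. In both sets replicate 2 was the highest of the 2-month libraries.

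Within a library, the summed FPKM of the C1q genes was also set beside single markers, chosen with their values known. Per unit of Cd68, a lysosomal protein of macrophages, it was 1.09, 1.03 and 1.59 in the 2-month replicates and 3.96, 3.81 and 3.98 in the 18-month replicates. The age ranges did not overlap for Cd68. Per unit of Csf1r, the receptor for macrophage growth factors, it was 8.37, 1.41 and 3.46 at 2 months and 6.12 to 7.06 at 18 months. Per unit of Mrc1, the mannose receptor, it was 13.4 to 26.9 at 2 months and 15.8 to 20.9 at 18 months. Adgre1, which encodes F4/80, gave 10.2 and 17.8 in 2-month replicates 2 and 3 and 9.10 to 12.9 at 18 months. The ranges overlapped for these 3 markers. Per unit of Itgam, a myeloid integrin subunit, it was 59.7, 2.66 and 30.1 at 2 months and 1.97, 2.57 and 2.58 at 18 months, so that the 2-month range lay above, opposite to Cd68.

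**Figure D2:**
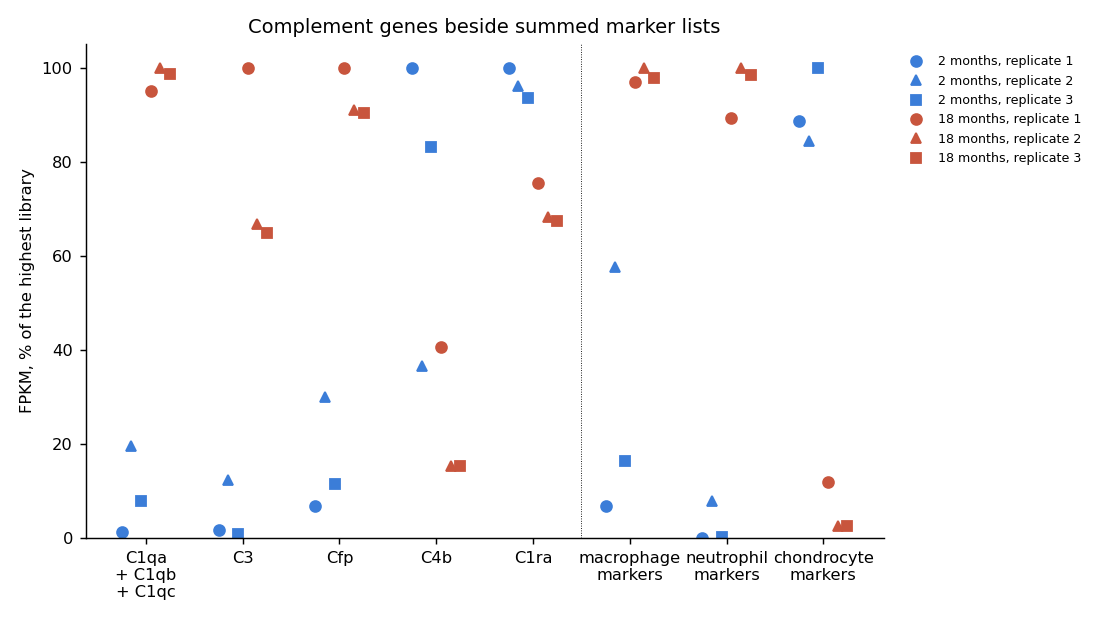
FPKM as a percentage of the highest library (vertical axis) for the summed C1q genes, C3, Cfp, C4b and C1ra (left of the dotted line) and for the summed macrophage, neutrophil and chondrocyte markers (right), with 1 point per library, 2 months in blue and 18 months in red. The summed C1q genes reached 19.4% of their highest value in 2-month replicate 2, where the macrophage markers reached 57.6%. Most of that macrophage sum of 108.7 FPKM came from Cd68, at 42.5 FPKM, and Csf1r, at 31.2 FPKM.

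The proteases that C1q carries showed another pattern. C1ra (ENSMUSG00000055172, chr6:124512405-124523443) encodes C1r, which activates C1s. It had 10.1, 9.65 and 9.40 FPKM at 2 months and 7.58, 6.86 and 6.77 FPKM at 18 months. All 18-month libraries were lower, within a narrow range. The log2 fold change was −0.54 ± 0.10 (SE) with an adjusted p of 0.0085 in edgeR, so C1ra passed the limit on p and not the limit on fold and was not called.

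C1s1 (ENSMUSG00000038521, chr6:124530345-124542359), 6.9 kb from C1ra, encodes C1s, which cleaves C4 and C2. It had 5.77, 7.02 and 8.11 FPKM at 2 months and 9.78, 6.69 and 7.74 FPKM at 18 months. The ages overlapped, with the highest value in 18-month replicate 1. The log2 fold change was 0.13 ± 0.19 (SE), with an adjusted p of 0.599 in edgeR. Its sign was not stable, since it was −0.23 on the log2(TPM + 0.1) scale, where the median of all genes was −0.33, and −0.0038 without 18-month replicate 1. Gm16567 is annotated antisense to C1s1. The near-copies, C1rb beside C1ra and C1s2 beside C1s1, were not called either, with log2 fold changes of −0.46 ± 0.33 and 0.20 ± 0.56 (SE) and adjusted p-values in edgeR of 0.286 and 0.782. Reads could be split between copies, and C1ra held 6.64 to 11.9 times the counts of C1rb and C1s1 held 28.2 to 66.0 times the counts of C1s2.

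C1q subunits and C1 proteases were also compared within libraries, as a ratio that library scaling cannot move. The log2 ratio of the summed FPKM of C1qa, C1qb and C1qc to that of C1ra and C1s1 was −2.40, 1.40 and 0.0093 in the 2-month replicates and 3.63, 4.06 and 3.94 in the 18-month replicates. The means were −0.33 ± 1.92 and 3.87 ± 0.22 (SD, n = 3 each), a difference of 4.21. The groups did not overlap, and the two-sided exact permutation test gave p = 0.1, the smallest value that 3 against 3 allows, so this test cannot pass 0.05. Leaving out each library in turn gave differences between 3.17 and 5.07.

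C3 (ENSMUSG00000024164, chr17:57203970-57228136) encodes the protein at which all pathways meet, and it showed the largest fold change of the 9 genes. It had 2.22, 16.0 and 1.05 FPKM in the 2-month replicates, from 628, 4829 and 305 counts. It had 129.5, 86.4 and 84.0 FPKM in the 18-month replicates, from 44753, 27929 and 27554 counts. Every 18-month library was above every 2-month library, with replicate 1 the highest at 18 months and replicate 2 at 2 months. C3 was called 15.4-fold higher, a log2 fold change of 3.94 ± 1.06 (SE) with an adjusted p of 0.0256 in edgeR. The call was lost in 4 of 6 fits without 1 library, at adjusted p-values in edgeR between 0.0589 and 0.0641, namely without 2-month replicate 1 or any one of the 18-month replicates. It was also lost when tested against a fold change of 2, at 0.0622. Without 2-month replicate 2 the log2 fold change was 5.83. The neutrophil markers divided the libraries in the same direction, and 2-month replicate 2 was the highest of its age for both. Otherwise the order within an age differed. At 18 months replicate 1 was the highest for C3 and, at 41556 FPKM, the lowest for the neutrophil markers. At 2 months replicate 1 stood above replicate 3 for C3 and below it for those markers, at 6.88 against 57.2 FPKM. Of the hepatocyte markers, Alb was listed at 0 in 5 of 6 libraries, with 0.21 FPKM in 2-month replicate 1, whereas Serpina1a had 194.0, 96.3 and 207.2 FPKM at 2 months and 2.19, 0.394 and 0.461 FPKM at 18 months and was called lower.

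C4b (ENSMUSG00000073418, chr17:34728380-34743882) encodes C4, the substrate of C1s, and was the member called lower. It had 99.1, 36.1 and 82.3 FPKM in the 2-month replicates and 40.3, 15.2 and 15.1 FPKM in the 18-month replicates. The ages overlapped, because 18-month replicate 1 stood above 2-month replicate 2. C4b was called 3.34-fold lower, with a log2 fold change of −1.74 ± 0.57 (SE) and an adjusted p of 0.0463 in edgeR. This call was lost in 4 of 6 fits without 1 library, all but those without 2-month replicate 2 and without 18-month replicate 1, at adjusted p-values in edgeR up to 0.137. It was also lost with median-of-ratios size factors, at 0.0505, with scaling by total counts alone, at 0.0541, without a filter on low counts, at 0.0610, and when tested against a fold change of 2, at 0.181.

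C4a, the near-copy of C4b on chromosome 17, followed the same libraries. It had 2.32, 1.03 and 2.07 FPKM at 2 months and 1.12, 0.367 and 0.363 FPKM at 18 months, with a log2 fold change of −1.66 ± 0.58 (SE) and an adjusted p of 0.0565 in edgeR, and it was not called. C4b held 31.9 to 39.2 times the counts of C4a in each library, so the values of C4a may hold reads of C4b. The chondrocyte markers were also higher at 2 months than at 18 months. For C4b and for those markers, 18-month replicate 1 was the highest and 2-month replicate 2 the lowest of its age. Some orders differed. C4b was lower in 2-month replicate 2 than in 18-month replicate 1, at 36.1 against 40.3 FPKM. The chondrocyte markers summed to 11215 against 1593 FPKM in these libraries. At 2 months replicate 1 stood above replicate 3 for C4b and below it for those markers, at 11789 against 13304 FPKM.

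The make-up of the 9 genes taken as a sum also differed between the ages. Their summed FPKM was 123.7, 129.0 and 125.1 in the 2-month replicates and 458.6, 391.9 and 387.1 in the 18-month replicates. C4b made up 80.1%, 28.03% and 65.8% of that sum at 2 months and 8.78%, 3.87% and 3.91% at 18 months. C3 made up 1.80%, 12.4% and 0.843% at 2 months and 28.2%, 22.0% and 21.7% at 18 months. C4b ranked first of the 9 genes in each 2-month library and 6th in each 18-month library.

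**Figure D3:**
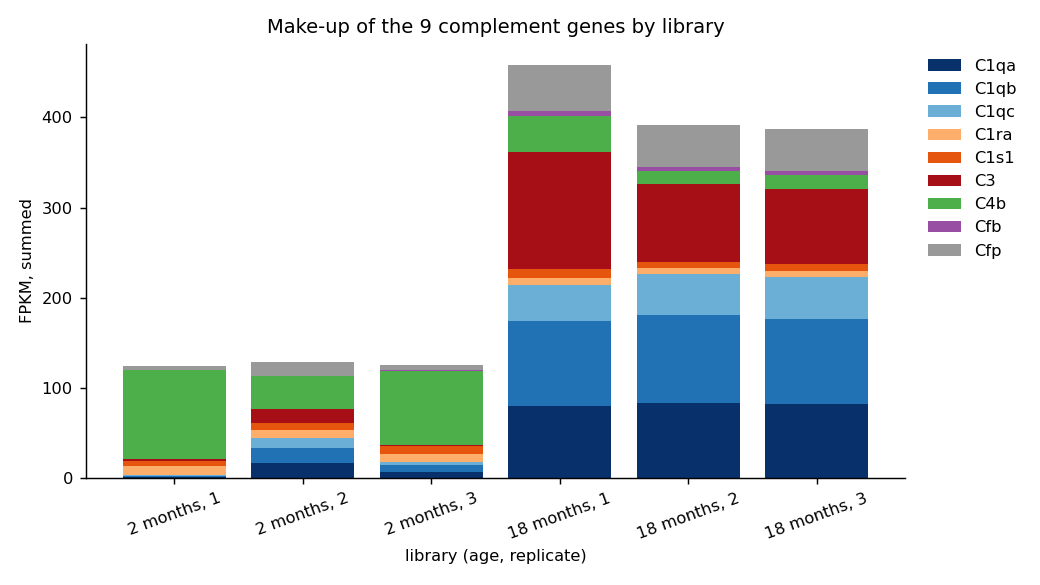
FPKM of the 9 genes stacked for each of the 6 libraries (horizontal axis, age and replicate), with 1 colour per gene and bars from 0. The 2-month bars sum to 123.7 to 129.0 FPKM with C4b the largest block. The 18-month bars sum to 387.1 to 458.6 FPKM with C3, C1qb and C1qa the largest blocks, followed by Cfp and C1qc.

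Cfb (ENSMUSG00000090231, chr17:34856374-34862518) encodes factor B, the protease of the alternative pathway, and was the lowest of the 9 genes in each library. It was listed at 0 in 2-month replicate 1, had 0.813 and 0.766 FPKM in replicates 2 and 3, and had 5.69, 4.34 and 4.35 FPKM at 18 months. Counts were 0, 136 and 122 against 1083, 771 and 787. The ages did not overlap, and yet Cfb was not called, with a log2 fold change of 3.12 ± 1.35 (SE) and an adjusted p of 0.1004 in edgeR. It was called without 2-month replicate 1, at 2.54 and an adjusted p of 0.00478 in edgeR, and by limma on log2(FPKM + 0.1), at 3.50 and 0.0163. Gm20547, a read-through gene annotated over Cfb on the same strand, had 52 counts in 2-month replicate 1, where Cfb had 0, and 0 in the other libraries. How the reads of the overlap were divided between these genes is not given in the sources used here.

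Cfp (ENSMUSG00000001128, chrX:20925454-20931555) encodes properdin, which holds the alternative convertase together, and gave the call that held in every fit. It had 3.52, 15.4 and 5.85 FPKM at 2 months and 51.4, 46.7 and 46.5 FPKM at 18 months. The order of the 2-month libraries was that of the C1q genes. Cfp was called 5.66-fold higher, a log2 fold change of 2.50 ± 0.52 (SE) with an adjusted p of 0.0105 in edgeR. Over the 6 fits without 1 library it lay between 2.15 and 3.25, and over the 12 other settings between 2.38 and 2.80, with an adjusted p of at most 0.0434 in all of them.

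**Figure D4:**
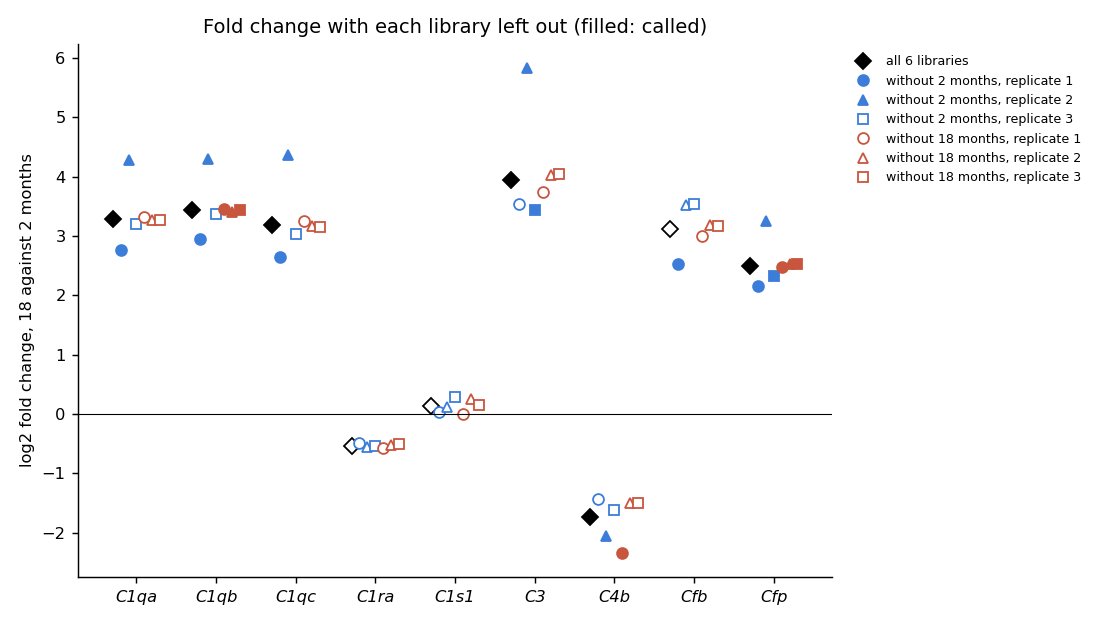
Log2 fold change of each of the 9 genes in edgeR (vertical axis) with all 6 libraries (black) and with each 2-month (blue) or 18-month (red) library left out, filled where the gene was called. Cfp is filled throughout, between 2.15 and 3.25, and C3 rises to 5.83 without 2-month replicate 2.

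The other genes of the cascade, from a list of 41 written from textbook knowledge, were read beside the 9. Of these, 38 were in the table and 32 were tested. Among the 32, 6 were called higher and 5 lower, where 14.9% and 21.3% of all genes tested were called higher and lower. Their median log2 fold change was 0.69, the same with the genes that had no counts at one age set to their bounds. The FPKM ranges of the 32 were above for 15 and below for 6, where 35.6% of all genes tested were above and 32.8% below.

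The partners of the alternative and classical convertases were not called. C2, which joins C4 in the classical C3 convertase, had a log2 fold change of 0.82 ± 0.93 (SE) and an adjusted p of 0.488 in edgeR. Cfd, the protease that cleaves factor B, had between 0 and 23 counts and a log2 fold change of 0.26 ± 1.502 (SE), so a change was not detectable at this depth.

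Among the soluble regulators, Serping1, the C1 inhibitor that removes C1r and C1s from C1q, was called higher. It had 1.08, 8.86 and 3.31 FPKM at 2 months and 32.8, 29.6 and 26.6 FPKM at 18 months, with a log2 fold change of 2.71 ± 0.70 (SE) and an adjusted p of 0.0221 in edgeR. Clu, which blocks the terminal complex, was called lower, from 277.7, 126.5 and 260.8 FPKM to 111.4, 39.3 and 42.2 FPKM, a log2 fold change of −1.90 ± 0.54 (SE) with an adjusted p of 0.0309. Vtn, another inhibitor of the terminal complex, had 0 counts in each 2-month library and 15, 23 and 53 counts at 18 months. It was called at an adjusted p of 0.0132 in edgeR, and was at least 8.49-fold higher against a floor of 3 counts per library. Of the membrane regulators, 0 of 5 tested were called in edgeR, with 1 at an unadjusted p below 0.05, beside 59% of all genes, and 2 were called higher in DESeq2, beside 16.1%, and 2 in limma on log2(FPKM + 0.1), beside 20.3%. Cd59a had an adjusted p of 0.0258 in edgeR with a log2 fold change of 0.95, under the fold limit.

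Among these other roles the receptors held the most calls in edgeR, 4 of 8 higher and 0 lower, beside 14.9% and 21.3% of all genes tested. Of the receptors 0 were lower at an unadjusted p below 0.05 in edgeR, and 0 were called lower in DESeq2 or limma. C5ar1, a receptor for the fragment C5a on myeloid cells, had 0.694, 2.78 and 0.237 FPKM at 2 months and 24.5, 25.7 and 26.2 FPKM at 18 months, with a log2 fold change of 4.33 ± 0.88 (SE) and an adjusted p of 0.00985 in edgeR. C5ar2, the other receptor for C5a, C3ar1, the receptor for C3a, and Cr2, a B cell receptor for C3 fragments, were called at log2 fold changes of 1.89, 2.30 and 2.19. The integrin subunits Itgam and Itgb2, which pair as a receptor for a C3 fragment, had higher ranges at 18 months at 4.05 ± 1.85 and 3.95 ± 1.54 (SE) and were not called, with adjusted p-values in edgeR of 0.113 and 0.0766.

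The lectin and terminal pathways held 4 of the 5 falls, the other being Clu. Masp1 and Masp2, the proteases of the lectin pathway, were called lower at log2 fold changes of −5.49 ± 1.09 and −6.03 ± 1.26 (SE) and adjusted p-values in edgeR of 0.00918 and 0.0108, with 240 to 381 and 49 to 148 counts at 2 months against 0 to 15 and 0 to 5 at 18 months. Their partners the ficolins pointed the other way without a call: Fcnb had 0, 20.5 and 0.134 FPKM at 2 months and 252.0 to 272.6 FPKM at 18 months, with an adjusted p of 0.104 in edgeR. Colec11, also on the lectin list, pointed the same way as Masp1 and Masp2 without a call. Its log2 fold change was −1.56 ± 0.67 (SE), with an adjusted p of 0.0964 in edgeR. C9, the pore-forming component, had 87, 121 and 90 counts at 2 months and 0 in each 18-month library, at least 39.6-fold lower against the floor of 3 counts per library, with an adjusted p of 0.00189 in edgeR. C8g was called lower, by −1.19 on the log2 scale with an adjusted p of 0.0456, and Hc, which encodes C5, had a log2 fold change of 0.28 ± 0.69 (SE) and was not called.

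**Figure D5:**
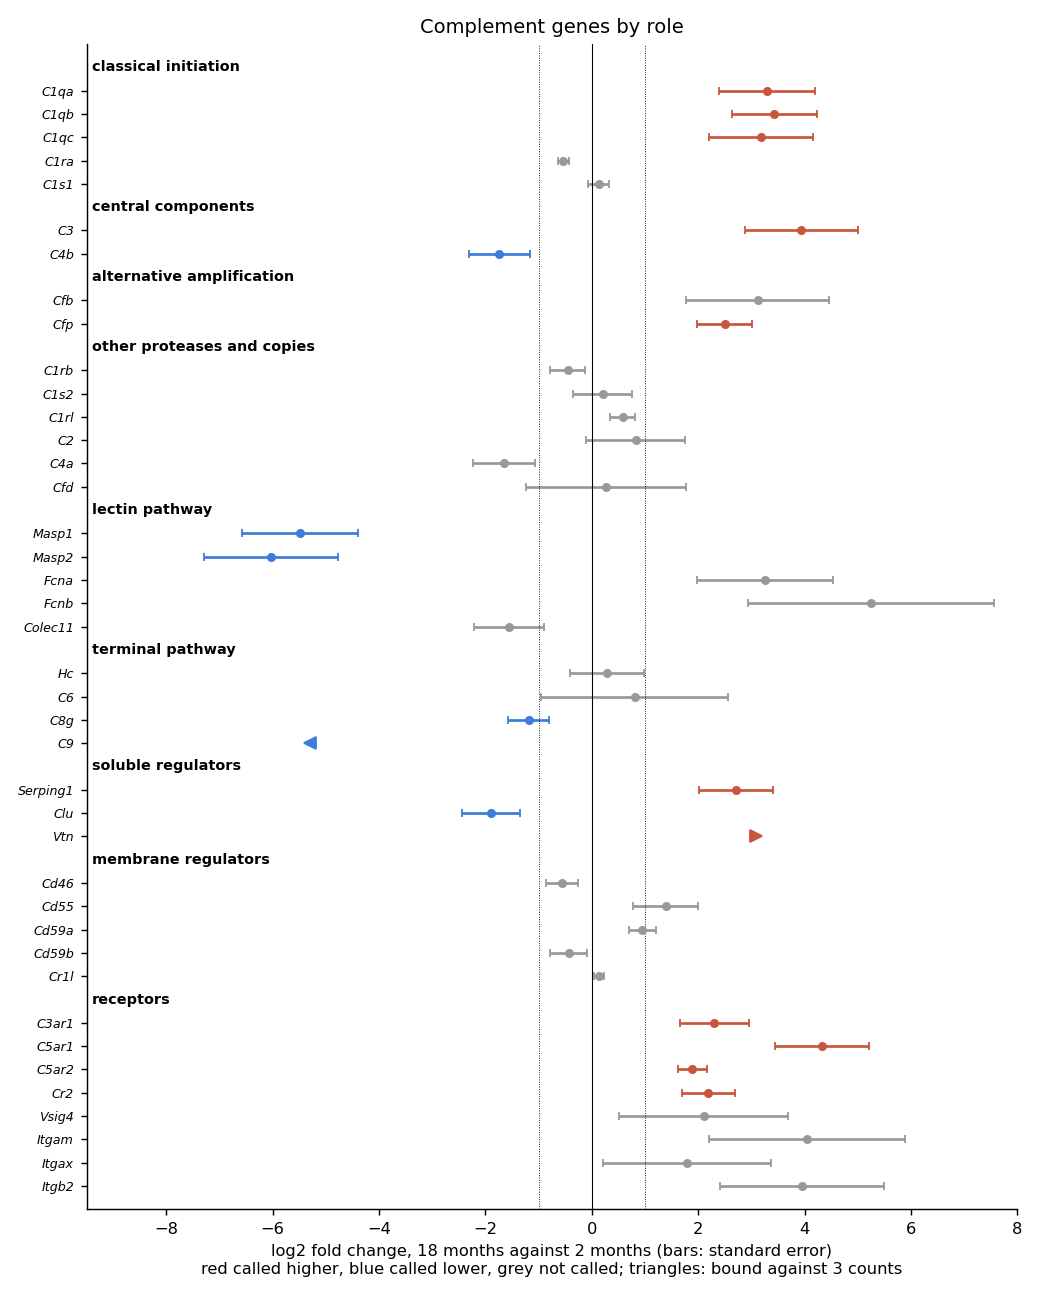
Log2 fold change of 18-month against 2-month cartilage (horizontal axis) with its standard error for the 9 genes and 31 of the 32 other complement genes tested, grouped by role, red called higher, blue called lower and grey not called. Triangles are bounds for C9 and Vtn, which had 0 counts at one age, and dotted lines mark the fold limit. The C1q genes sit near 3 while C1ra and C1s1 sit near 0.

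The genes with the most similar profiles differed between members. Likeness was the root-mean-square difference of centred log2 CPM over the 6 libraries among 13891 genes, where a smaller value is a closer profile. C4a (0.108) and Clu (0.145) were the closest to C4b, followed by Ppp4r4, Gm36608 and Gm6277. Cfp was matched most closely by Otulinl (0.0805), Mbp, Nin, Pag1 and Fanci, and C3 by Card9 (0.249), Mapkapk3, Ceacam2, Add2 and Pcyt1b. C1qa was matched by Cenph (0.209), Gm12999, Gm15452, Gm45867 and Ifi207, and C1s1 by Zfyve19 (0.0479), Aars2, Impa1, Pygo2 and Rbm14. These are descriptions over 6 libraries.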

How the data were processed

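Polyadenylated RNA of 3 cartilage libraries per age was made into strand-specific libraries with molecular identifiers and sequenced from both ends. Read counts per gene were deposited by the authors without normalization, as were FPKM values, scaled by gene length and library size. Submitters' processing notes name cutadapt 1.9, HISAT2 2.0.4, UMI-tools, StringTie 1.3.4d, DESeq2 and edgeR. The build is not given in the sources used here. All 9 genes had identical coordinates in GENCODE M21 (GRCm38). 0 columns of values per library were left out. With totals of 48171507 to 59085179 counts, counting error is small beside the spread between libraries for genes with many counts. Counting error weighs more for genes with few, such as Cfd, with 0 to 23, and Masp2, with 0 to 5 at 18 months.

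Tests on the counts used edgeR 4.0.16 under R 4.3.3 (TMM, filterByExpr, quasi-likelihood test, Benjamini-Hochberg adjustment over 20397 genes, no replicate block). The SE was the log2 fold change over the square root of F. Of called genes, 41.2% were higher (57.8% by limma on log2(FPKM + 1)). Alternatives used limma 3.58.1 with trend for a mean FPKM of at least 0.1, DESeq2 1.42.0, other scalings, filters and left-out libraries. Summing 18-month replicates 2 and 3, the libraries of one age nearest to each other (6.32 times counting noise, other pairs 13.1 to 48.8), was added after seeing the data. Members and lists were chosen with earlier results of these data known. By rule, the text names all 9 members, other complement genes that were called, near-copies and partners, and the 5 genes most like each of 5 members. Other genes were named with values known. The values of 1 complement gene of the list, counted in its totals, are not reported here. The fits were tested on simulated data. There DESeq2 recovered a larger share of the true changes than edgeR or limma, and also made more false calls.

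Marker lists not described elsewhere spanned, at 2 against 18 months, 415.9 to 545.0 against 742.5 to 864.0 FPKM for monocytes, 6.19 to 194.7 against 445.9 to 495.3 for B lymphocytes, 2.00 to 13.3 against 33.5 to 40.9 for adipocytes, 1.62 to 37.3 against 23.7 to 25.0 for endothelial cells, 856.6 to 2900 against 595.8 to 694.5 for fibroblasts, 1706 to 3333 against 922.9 to 938.5 for osteoblasts and 96.3 to 207.2 against 0.428 to 2.45 for hepatocytes. The hepatocyte sum at 2 months was nearly all Serpina1a, and Alb, Apoa1 and Apoa2 reached at most 0.21 FPKM there and were not tested. The monocyte sum joined members that went opposite ways. Fn1, at 315.6 to 370.5 FPKM at 2 months, was called lower, and F13a1 had a log2 fold change of −0.45 without a call. Ly6c1 was called higher at 1.30, and Ly6c2, Ccr2, Ms4a6c and Plac8 stood at 4.00 to 4.55 without a call in edgeR. As a share of counts the monocyte list held 0.50% to 0.58% at 2 months and 0.27% to 0.38% at 18 months. The fibroblast list was mixed too, with Col3a1, Dcn, Lum and Pdgfra called lower and Pi16 and Thy1 called higher. In the osteoblast list Ibsp and Sp7 were called lower, and the others, such as Bglap at a log2 fold change of −0.01, were not called. Figures were drawn with matplotlib 3.10.9.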

Additional observations from a re-analysis of the deposited data

How the results depend on the processing

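Over all genes 7401 were called, and 4033 by glmTreat against a fold change of 2, which also left 2 members higher, 0 lower, and 3 other complement genes higher and 3 lower. The count of members called lower, 1 with all libraries, was 0 with median-of-ratios size factors, with total counts alone, without a filter and with 18-month replicates 2 and 3 summed. That sum left 2 members called higher, C1qb and Cfp, and 3 other complement genes lower. The count of other complement genes called higher, 6 in edgeR, was 13 in DESeq2 and by limma on log2(FPKM + 0.1), and 10 by limma on log2(FPKM + 1) and log2(TPM + 0.1). The count called lower, 5 in edgeR, was 1 on log2(FPKM + 1) and 3 with a mean FPKM of at least 1. Masp1, Masp2 and C9, called lower in the main fit, lie under that minimum and were not tested there. Leaving out 1 library gave 5640 to 9583 calls over all genes, 2 to 5 members higher, 0 to 1 lower, 4 to 18 other complement genes higher (18 without 2-month replicate 2) and 3 to 6 lower. C1s1 changed sign on log2(TPM + 0.1), at −0.23, and without 18-month replicate 1, at −0.0038, the lowest of −0.0038 to 0.28 over the fits without 1 library. The log2 fold changes of the 9 members kept their side of the limits in 128 comparisons with an alternative, lost a call in 29 and gained one in 3.

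Same-numbered libraries deviated from their age means with correlations of 0.0337, 0.0442 and −0.0241, so no pairing by replicate number was seen. With 3 libraries an age, these values cannot show that a pairing is absent. With the number as a replicate block 6032 genes were called, with 5 members higher and 1 lower. The cause of the differences between settings was not tested, except that summing or leaving out libraries leaves fewer samples and a minimum FPKM leaves out genes. With 3 libraries an age, groups were too small to look for single outlying libraries.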

Other observations

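C3 and the integrin gene Itgam, a myeloid marker and a receptor subunit for a C3 fragment, stood near one level in 4 of the libraries. The FPKM of C3 was 0.974 times that of Itgam in 2-month replicate 2 and 1.19, 0.982 and 0.973 times in 18-month replicates 1, 2 and 3. It was 44.2 and 1.80 times in 2-month replicates 1 and 3, where Itgam had 14 and 166 counts. Itgam was chosen with its values known, and no test was made. Beside other markers, C3 stood lower in 2-month replicate 2 than in each 18-month library. It was 0.377 against 1.46 to 2.39 times Cd68 and 0.514 against 2.60 to 3.69 times Csf1r. For Adgre1 it was 3.71 against 4.79 to 5.49 times, and for Mrc1 4.90 against 5.98 to 12.6 times.

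Fcnb, a ficolin of the lectin pathway, had the highest FPKM of any complement gene listed here in 18-month cartilage, 252.0 to 272.6 FPKM, above the highest value of C3 there, 129.5 FPKM, although edgeR did not call it.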
